A study of Mus musculus with 6 samples.

Results

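Matrix metalloproteinases (MMPs), proteases of the ADAMTS family and tissue inhibitors of metalloproteinases (TIMPs) were followed in RNA-Seq libraries of mouse lung cells. The members were the genes of the count table with an Mmp, Adamts or Timp symbol followed by a number, and a member was kept when any library held at least 10 of its reads. Of 46 genes with such a symbol, 43 were kept, out of 24474 genes in the whole table that reached the same minimum. They were 20 MMPs, 19 ADAMTS genes and all 4 TIMPs. Mmp1a, Mmp7 and Mmp20 did not reach the minimum.

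The lungs came from C57BL/6 mice for which the labels give no engineered allele, and the study's methods describe male C57BL/6J mice for its fibrosis model. Sham-treated mice were given sterile saline and BLM-treated mice bleomycin sulfate, a DNA-damaging drug that causes lung fibrosis, both by oropharyngeal instillation, and lungs were taken 21 days later. Age and the bleomycin dose of these particular mice are not given in the sources used here. Lungs were dissociated with collagenase, 2 to 3 lungs of a group were pooled per tube, and each suspension was sequenced as unsorted cells and as Lamp1-depleted and Lamp1-enriched cells, sorted with an antibody to Lamp1, a lysosomal membrane protein, on the cell surface. There was 1 library for each of the 6 combinations, so animals cannot be separated and no difference between 2 libraries has a replicate check.

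MMPs are zinc-dependent proteases that are made as inactive precursors and, once activated, cleave collagens, elastin, proteoglycans and many non-matrix proteins. ADAMTS enzymes are secreted relatives with thrombospondin repeats that cut versican and aggrecan, remove the propeptides of fibrillar procollagens or act on microfibrils and von Willebrand factor. TIMPs bind the active site of these enzymes, and Timp3 inhibits several ADAMTS proteases as well as MMPs. In fibrotic lung, this family is known for its part in the turnover of the scar matrix, with macrophages, neutrophils, fibroblasts and endothelial cells each making a different set.

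Of the 23 Mmp genes, 10 lie side by side on chromosome 9, in the order Mmp13, Mmp12, Mmp1b, Mmp3, Mmp1a, Mmp10, Mmp8, Mmp27, Mmp20 and Mmp7 (GRCm38). Many genes of this cluster are known targets of the transcription factor AP-1, so the letters TGAGTCA, a classical AP-1 motif, were searched on both strands in promoter windows from RefSeq (GRCm38.p6) that run from 250 bases before to 50 bases after a transcription start. Windows were matched for 29 of the 43 members. The motif was found at 5 of 15 MMP genes with a window, which is 29.4% of 17 windows, and in the window of no ADAMTS gene or TIMP. Of all 32851 windows in the table, 5.20% held it, and of the windows of genes with at least 10 reads in any library, 4.21%. The 5 genes were Mmp10, Mmp12, Mmp13, Mmp1b and Mmp3, all in the cluster, while the windows of Mmp8 and Mmp27 did not hold these letters. They are shown because 4 of the 5 had at least 4-fold more reads in BLM than in sham unsorted cells, as described further on, and Mmp3 did not. Of the 4, Mmp1b rests on 22 reads in BLM unsorted cells that cannot be told apart from reads of Mmp12, and Mmp10 on 35. Of the other 7 members called higher there, Mmp8, Mmp27, Mmp14, Mmp25, Timp1 and Adamts20 had windows without these letters, and Mmp19 had no matched window. Each stretch is 60 bases, written 5′ to 3′ on the strand of the gene, with the motif in capitals.
Mmp10, chr9:7502236-7502295, plus strand, motif ending 56 bases before the start: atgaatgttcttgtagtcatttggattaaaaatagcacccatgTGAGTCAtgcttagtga
Mmp12, chr9:7347287-7347346, plus strand, motif ending 37 bases before the start: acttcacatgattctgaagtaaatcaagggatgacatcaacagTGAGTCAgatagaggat
Mmp13, chr9:7272436-7272495, plus strand, motif ending 28 bases before the start: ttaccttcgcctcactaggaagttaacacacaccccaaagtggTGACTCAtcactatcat
Mmp1b, chr9:7388103-7388162, minus strand, motif ending 86 bases before the start: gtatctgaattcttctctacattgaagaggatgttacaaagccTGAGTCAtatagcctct
Mmp3, chr9:7445733-7445792, plus strand, motif ending 39 bases before the start: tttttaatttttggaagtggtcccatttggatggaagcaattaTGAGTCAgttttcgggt
In Mmp13 the gene strand reads TGACTCA, the reverse complement of the searched letters. Mmp12 has a second RefSeq start further upstream, whose window did not hold the motif. A match of letters is a description of the sequence and does not show that a factor was bound.

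Counted reads per library ranged from 30236120 to 52918696. Levels are given as CPM, the counts of a library per 1e6 reads, scaled with TMM factors from edgeR, which ranged from 0.699 to 1.19. Reads of the noncoding gene Gm26917 made up 38.4% of the BLM Lamp1-depleted library, which had the lowest factor, and no more than 7.10% of any other. Levels of different genes were ranked and summed in reads per kilobase of annotated exon (RPKM, on the same library scale), and CPM serve to compare libraries for 1 gene or 1 list. A count of 0 allowed a level of up to 3 reads. Every ratio between 2 libraries is given as a log2 ratio with a 95% Clopper-Pearson interval, which covers counting error only. Lamp1 had log2 ratios of 1.75 (1.71 to 1.79) and 1.77 (1.71 to 1.83) in Lamp1-enriched over Lamp1-depleted cells, in sham and BLM respectively. In all of these bulk samples, fewer cells of a type and less RNA per cell cannot be told apart.

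The summed level of the MMPs was highest in BLM unsorted cells, and the balance of inhibitors to MMPs was lowest in BLM unsorted and BLM Lamp1-depleted cells. The MMP sums cover all 23 Mmp genes, with Mmp1a, Mmp7 and Mmp20 included. They came to 58.9, 16.3 and 66.8 RPKM in the unsorted, Lamp1-depleted and Lamp1-enriched sham preparations. In the BLM preparations, in the same order, they came to 277, 43.2 and 107 RPKM. ADAMTS genes summed to 63.0, 25.1 and 70.1 RPKM in sham and to 69.8, 35.1 and 168 RPKM in BLM. The 4 TIMPs summed to 129, 28.7 and 169 RPKM in sham and to 154, 23.7 and 193 RPKM in BLM. Within each treatment the Lamp1-depleted library had the lowest sum of all 3 groups. The ratio of summed TIMP to summed MMP RPKM was therefore 2.18, 1.76 and 2.52 in the sham libraries and 0.555, 0.548 and 1.81 in the BLM libraries. In sham unsorted cells the leading member was Timp2 at 93.1 RPKM, followed by Timp3 at 34.0 and Adamts1 at 33.8 RPKM. In BLM unsorted cells Mmp19 led at 149 RPKM, which was 54.0% of the summed MMP level, ahead of Timp2 at 107 and Mmp12 at 56.9 RPKM. These are sums of transcript levels and do not measure protein or enzyme activity.

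**Figure D1:**
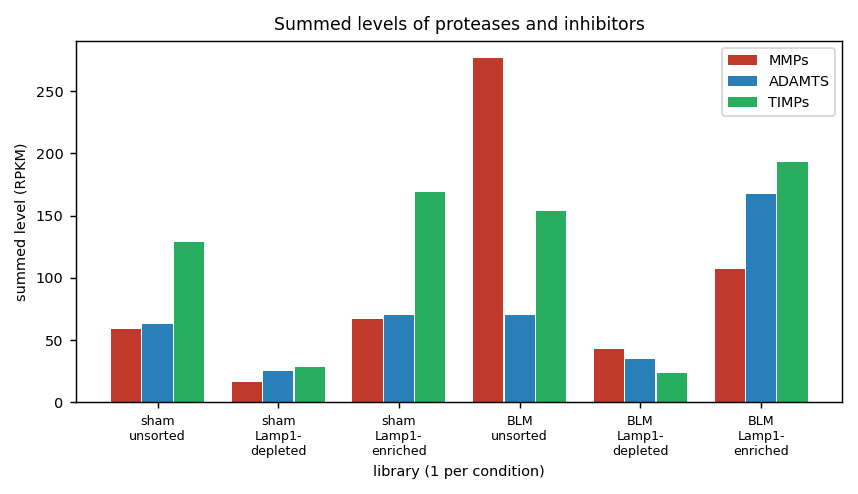
Summed RPKM of the MMPs (red), ADAMTS genes (blue) and TIMPs (green) in each of the 6 libraries, as bars from 0 with 1 library per condition and no error bars. The MMP bar is the tallest only in BLM unsorted and BLM Lamp1-depleted cells, at 277 and 43.2 RPKM.

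**Figure D2:**
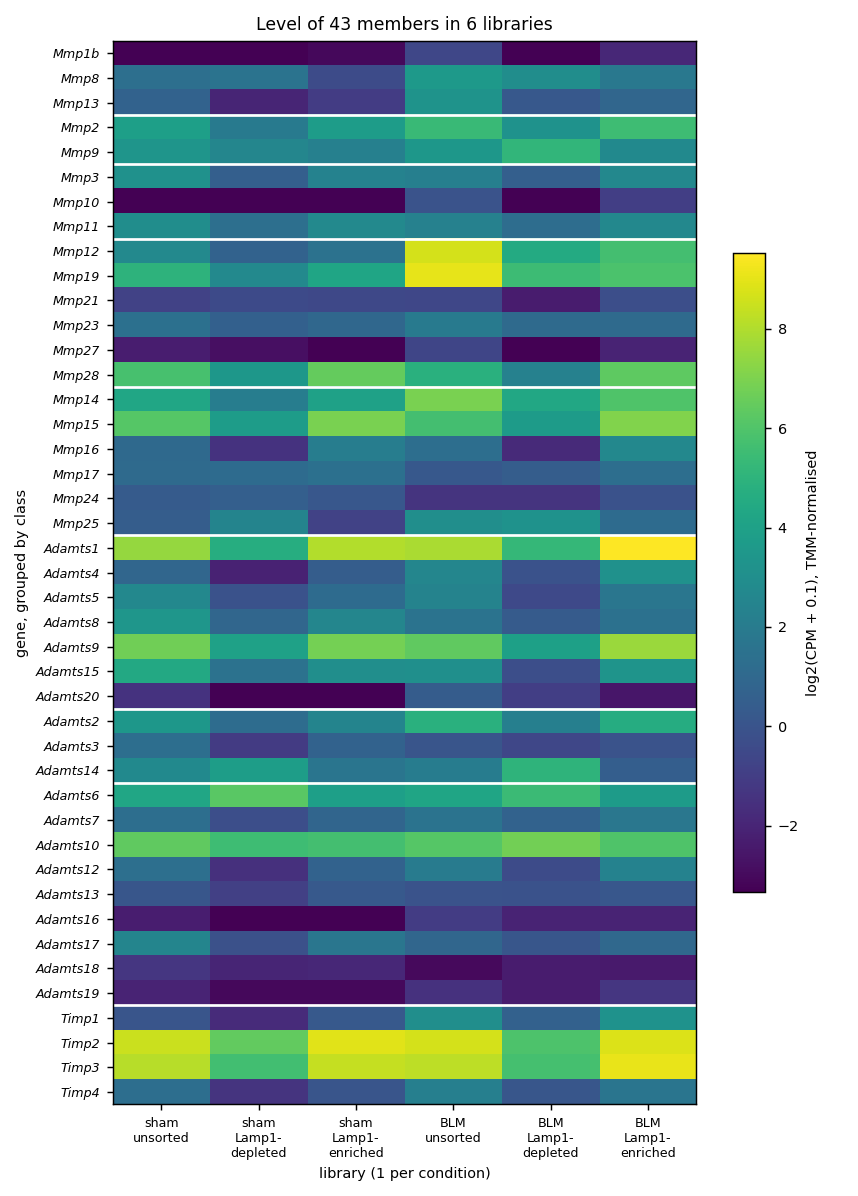
Heat map of the 43 members (rows, grouped by class with white lines between classes) in the 6 libraries (columns), coloured by log2 of CPM plus 0.1. Colours are to be read along a row, since CPM are not scaled by gene length: the rows of Mmp12 and Mmp19 are brightest in BLM unsorted cells, at 412 and 528 CPM, and those of Timp2, Timp3 and Adamts1 are darker in the Lamp1-depleted columns than in the others.

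To ask which members differed with bleomycin in the whole suspension, BLM unsorted cells were compared with sham unsorted cells. A gene was called when it differed by 4-fold or more, its counting interval lay wholly on that side of no difference, and the higher library held at least 10 reads. Of 43 members, 11 were called higher and 2 lower. Among all 22772 genes tested, 4.96% were called higher and 5.00% lower. The median log2 ratio was 0.25 over the members, with 26 above 0, and -0.07 over all genes tested. Of the calls over all genes 49.8% were in the higher direction, and 36.0% when libraries were scaled by total counts only.

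The collagenases Mmp8 and Mmp13 cut fibrillar collagen at a single site in the triple helix, and both were called higher in BLM unsorted cells. So was Mmp1b, which was placed in the same class. Mmp13, the main interstitial collagenase of rodents, stood at 1.57, 0.154 and 0.391 CPM in the unsorted, Lamp1-depleted and Lamp1-enriched sham preparations and at 9.66, 1.04 and 1.76 CPM in the same BLM preparations. It was higher in BLM in each of the 3 preparations, with log2 ratios of 2.62 (2.27 to 3.0) in unsorted, 2.14 (1.43 to 2.99) in Lamp1-enriched and 2.65 (1.48 to 4.23) in Lamp1-depleted cells. Mmp8, the collagenase of neutrophil granules, stood at 2.45, 2.83 and 0.652 CPM in sham and at 12.2, 7.81 and 3.41 CPM in BLM. Its log2 ratios were 2.31 (2.02 to 2.62) in unsorted, 2.37 (1.83 to 3.0) in Lamp1-enriched and 1.46 (1.12 to 1.81) in Lamp1-depleted cells. Unlike Mmp13, Mmp8 was lowest in Lamp1-enriched cells under both treatments. Mmp1b, a mouse relative of human interstitial collagenase, had 22 reads in BLM unsorted and 9 in BLM Lamp1-enriched cells, 1 read in sham Lamp1-enriched cells and 0 in the other 3 libraries. That put it at least 9.02-fold higher in BLM than in sham unsorted cells. Mmp1b lies on the opposite strand to Mmp12 and shares 157 bases of annotated exon with it, and because the strand setting of the counting is not stated, its 22 reads cannot be told apart from reads of Mmp12, which had 16250 in the same library.

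Among the stromelysins, which degrade proteoglycans and activate other MMPs, only Mmp10 was called. Mmp10 had 35 reads in BLM unsorted cells and 23 in BLM Lamp1-enriched cells, and 0 reads in all 3 sham libraries and in BLM Lamp1-depleted cells. It was at least 14.4-fold higher in BLM than in sham unsorted cells and at least 6.47-fold higher in Lamp1-enriched cells. Mmp3, stromelysin-1 and the neighbour of Mmp1b in the cluster, stood at 8.90, 1.38 and 5.06 CPM in sham and at 4.56, 1.37 and 6.16 CPM in BLM. Its log2 ratio was -0.96 (-1.22 to -0.71) in unsorted cells and 0.28 (0.04 to 0.53) in Lamp1-enriched cells. Mmp3 thus had fewer reads in BLM unsorted cells, where 6 other members of the cluster, Mmp8, Mmp10, Mmp12, Mmp13, Mmp1b and Mmp27, were called higher.

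**Figure D3:**
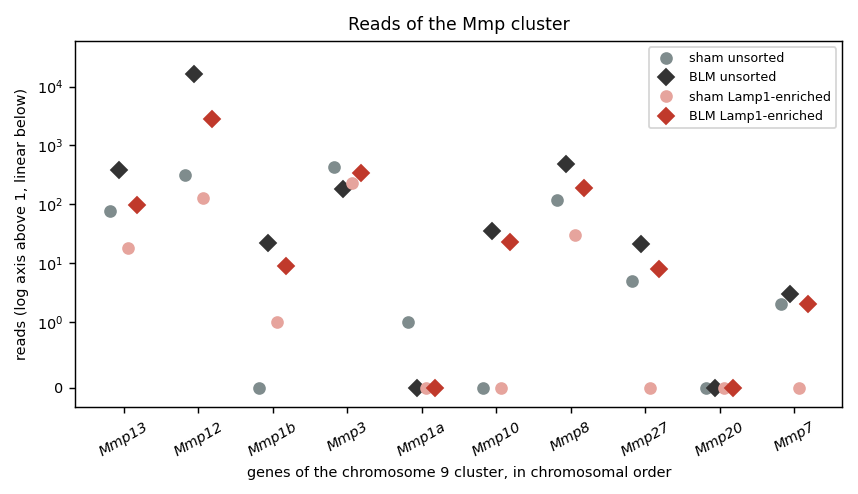
Reads of the 10 Mmp genes of the chromosome 9 cluster in chromosomal order, on an axis that is logarithmic above 1 read and linear below. Circles are sham and diamonds BLM libraries, grey and black unsorted and pink and red Lamp1-enriched cells; Mmp12 runs from 313 to 16250 reads in unsorted cells, while Mmp3 is lower in BLM than in sham unsorted cells.

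Mmp12 and Mmp19 had the highest RPKM in BLM unsorted cells of the members called there, 56.9 and 149. Mmp12, macrophage elastase, stood at 6.45, 1.56 and 2.80 CPM in the unsorted, Lamp1-depleted and Lamp1-enriched sham preparations and at 412, 22.7 and 50.9 CPM in BLM. Every BLM library exceeded every sham library. Log2 ratios were 6.00 (5.84 to 6.16) in unsorted, 4.18 (3.93 to 4.45) in Lamp1-enriched and 3.85 (3.50 to 4.24) in Lamp1-depleted cells, so the unsorted cells were 63.9-fold apart. Mmp19, a secreted protease with basement membrane proteins among its substrates, stood at 30.9, 6.43 and 18.9 CPM in sham and at 528, 44.1 and 58.8 CPM in BLM. It too was higher in all 3 BLM libraries than in any sham library. Its log2 ratios were 4.09 (4.02 to 4.17) in unsorted, 1.64 (1.53 to 1.75) in Lamp1-enriched and 2.77 (2.59 to 2.97) in Lamp1-depleted cells. Exons of Mmp19 share 1001 bases with 2 genes on the opposite strand, Gm47093 and Tmem198b. Mmp27 had 5 reads in sham and 21 in BLM unsorted cells, a log2 ratio of 2.25 (0.92 to 4.13), and its highest level in any sorted library was 0.147 CPM, in BLM Lamp1-enriched cells. Mmp28, epilysin, which is known from epithelia, went the other way in unsorted cells, with 53.8, 11.1 and 88.2 CPM in sham and 28.4, 4.97 and 81.1 CPM in BLM. At -0.92 (-1.02 to -0.82) its log2 ratio in unsorted cells did not reach 4-fold.

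The membrane-type MMPs act at the cell surface, and 2 of 6 were called higher and 1 lower in BLM unsorted cells. Mmp14, which activates the precursor of Mmp2 together with Timp2, stood at 19.4, 4.30 and 16.4 CPM in sham and at 120, 20.3 and 63.3 CPM in BLM. Each BLM library exceeded its own sham counterpart, with log2 ratios of 2.63 (2.53 to 2.74) in unsorted, 1.95 (1.84 to 2.07) in Lamp1-enriched and 2.24 (1.99 to 2.49) in Lamp1-depleted cells. Mmp25, a lipid-anchored MMP of leukocytes, stood at 1.30, 5.48 and 0.478 CPM in sham and at 7.91, 9.28 and 2.13 CPM in BLM. Its log2 ratio was 2.60 (2.21 to 3.02) in unsorted and 2.13 (1.49 to 2.88) in Lamp1-enriched cells but 0.76 (0.48 to 1.03) in Lamp1-depleted cells, the preparation with its highest level. Mmp24, known from neurons, had 1.19, 1.36 and 1.02 CPM in sham and 0.279, 0.284 and 0.844 CPM in BLM. It was called lower in unsorted cells, at -2.06 (-3.18 to -1.15), and in Lamp1-depleted cells, at -2.20 (-3.76 to -1.06), and shares 637 exonic bases with a gene on the opposite strand. Mmp15 and Mmp16, transmembrane MMPs, were not called in any comparison of BLM with sham. Mmp15 stood at 70.6, 13.6 and 121 CPM in sham and at 51.6, 12.9 and 137 CPM in BLM, and Mmp16 at 1.96, 0.263 and 4.30 CPM in sham and at 2.38, 0.189 and 6.20 CPM in BLM.

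The gelatinases cleave denatured collagen and basement membrane collagen, and neither was called in unsorted cells. Mmp2, gelatinase A, stood at 14.9, 3.64 and 13.5 CPM in sham and at 41.5, 9.14 and 45.6 CPM in BLM. Its log2 ratios were 1.47 (1.35 to 1.60) in unsorted, 1.75 (1.62 to 1.88) in Lamp1-enriched and 1.32 (1.02 to 1.64) in Lamp1-depleted cells, below 4-fold in each. Mmp9, gelatinase B of neutrophils and macrophages, stood at 10.3, 5.77 and 4.78 CPM in sham and at 10.8, 34.3 and 6.79 CPM in BLM. Mmp9 was called higher in BLM only in Lamp1-depleted cells, with a log2 ratio of 2.57 (2.37 to 2.78), against 0.07 (-0.12 to 0.26) in unsorted cells. The summed level of the neutrophil markers was 45.7 CPM in sham and 323 CPM in BLM Lamp1-depleted cells. There 6 of 7 tested were called higher, beside 5.36% of all genes. In unsorted cells the sum was 67.8 CPM in sham and 126 CPM in BLM, with 0 of 7 called and a median log2 ratio of 0.12. The part of neutrophils in the Mmp9 difference was not tested.

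ADAMTS genes held fewer calls than MMPs in unsorted cells, with Adamts20 higher and Adamts18 lower among 19. These counts were near the shares over all genes tested, 4.96% higher and 5.00% lower. Adamts20, which cleaves versican, had 13 reads in sham and 48 in BLM unsorted cells, a log2 ratio of 2.14 (1.28 to 3.19), and at most 0.426 CPM in a sorted library. Adamts18 had 15 reads in sham and 1 in BLM unsorted cells, a log2 ratio of -3.13 (-9.0 to -0.91), and 0.0917 to 0.174 CPM in the sorted libraries. Both calls rest on small counts, and that of Adamts20 was lost with total counts only, at 1.88. With a prior count of 2 reads, the unsorted calls of Mmp24 and Mmp27 were lost too, at log2 ratios of -1.94 and 1.96. Adamts1, a protease for versican with the highest RPKM of the ADAMTS genes in the unsorted and Lamp1-enriched libraries, stood at 179, 25.1 and 262 CPM in sham and at 237, 37.1 and 729 CPM in BLM. Its log2 ratio was 0.40 (0.36 to 0.45) in unsorted cells and 1.48 (1.45 to 1.51) in Lamp1-enriched cells. Adamts9, another versican-cleaving enzyme, stood at 105, 16.4 and 114 CPM in sham and at 83.7, 15.3 and 191 CPM in BLM. For Adamts9 the BLM library was the lower in unsorted cells and the higher in Lamp1-enriched cells, with log2 ratios of -0.33 (-0.40 to -0.27) and 0.74 (0.69 to 0.79).

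In Lamp1-enriched cells alone, 9 of 38 members tested were called higher in BLM than in sham and 0 lower, against 3.59% of 21671 genes called higher and 2.09% lower. The 9 were Adamts2, Adamts4, Adamts19, Mmp8, Mmp10, Mmp12, Mmp13, Mmp25 and Timp1, of which 6, namely Mmp8, Mmp10, Mmp12, Mmp13, Mmp25 and Timp1, were also called in unsorted cells. The members' median log2 ratio was 0.53, against -0.0003 over all genes tested. Adamts4, known as an aggrecanase, stood at 1.77, 0.132 and 1.26 CPM in sham and at 5.83, 0.852 and 8.88 CPM in BLM. It was called in both sorted fractions, with log2 ratios of 2.81 (2.42 to 3.24) in Lamp1-enriched and 2.56 (1.30 to 4.32) in Lamp1-depleted cells, and reached 1.71 (1.36 to 2.09) in unsorted cells. Adamts2, which removes the amino-terminal propeptide of fibrillar procollagen, stood at 11.1, 2.24 and 5.46 CPM in sham and at 28.4, 4.54 and 24.8 CPM in BLM. Its log2 ratio of 2.18 (1.99 to 2.38) in Lamp1-enriched cells compares with 1.35 (1.21 to 1.51) in unsorted and 1.02 (0.60 to 1.44) in Lamp1-depleted cells. Adamts19, a poorly characterised member, had 1 read in sham and 17 in BLM Lamp1-enriched cells, a log2 ratio of 3.34 (1.17 to 9.23), and 7 and 10 reads in the unsorted libraries. Adamts12, linked to cartilage oligomeric matrix protein, stood at 2.49, 0.241 and 1.52 CPM in sham and at 3.95, 0.663 and 5.03 CPM in BLM, with a log2 ratio of 1.72 (1.34 to 2.12) in Lamp1-enriched cells that did not reach 4-fold.

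In Lamp1-depleted cells, 7 of 36 members were called higher in BLM than in sham and 2 lower, against 5.36% and 7.27% of 20852 genes. They were Mmp9, Mmp12, Mmp13, Mmp14, Mmp19, Adamts4 and Timp1 on the higher side and Mmp24 and Mmp21 on the lower, where Mmp21 had 29 and 2 reads. The median log2 ratio was 0.58 over the members and -0.20 over all genes. Of all calls in this comparison 42.4% were in the higher direction, and 16.4% with libraries scaled by total counts only. With that scaling Mmp12, Mmp19 and Timp1 were still called, Mmp9 at 1.85, Mmp13 at 1.96, Mmp14 at 1.52 and Adamts4 at 1.88 were not, and the median of the members was -0.13. Mmp12, Mmp13 and Timp1 were the members called higher in BLM in all 3 preparations with TMM factors.

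The TIMPs did not move as a group. Timp1, the inducible inhibitor, stood at 0.948, 0.197 and 1.09 CPM in the unsorted, Lamp1-depleted and Lamp1-enriched sham preparations and at 8.04, 1.47 and 9.15 CPM in BLM. The 3 log2 ratios of Timp1, BLM over sham, were 3.07 (2.63 to 3.56), 2.80 (1.79 to 4.15) and 3.06 (2.65 to 3.52) in that order. Timp2, a constitutive inhibitor and the partner of Mmp14, stood at 363, 87.4 and 490 CPM in sham and at 415, 59.7 and 451 CPM in BLM. Its log2 ratios were 0.19 (0.16 to 0.22), -0.55 (-0.64 to -0.46) and -0.12 (-0.15 to -0.10). Timp3, which is held in the extracellular matrix, stood at 277, 49.1 and 338 CPM in sham and at 303, 53.2 and 544 CPM in BLM, with log2 ratios of 0.13 (0.10 to 0.17), 0.12 (0.01 to 0.22) and 0.69 (0.66 to 0.72). The gene Syn3 lies over Timp3 on the opposite strand and shares 1733 exonic bases with it. Timp4 stood at 2.35, 0.285 and 0.956 CPM in sham and at 4.61, 0.994 and 3.10 CPM in BLM, with log2 ratios of 0.97 (0.63 to 1.32), 1.75 (0.74 to 2.92) and 1.69 (1.21 to 2.21). Timp1 was thus the inhibitor with the largest ratio, yet at 10.3 RPKM in its highest library it was below Timp2 at 116 and Timp3 at 66.8 RPKM in the same cells.

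**Figure D4:**
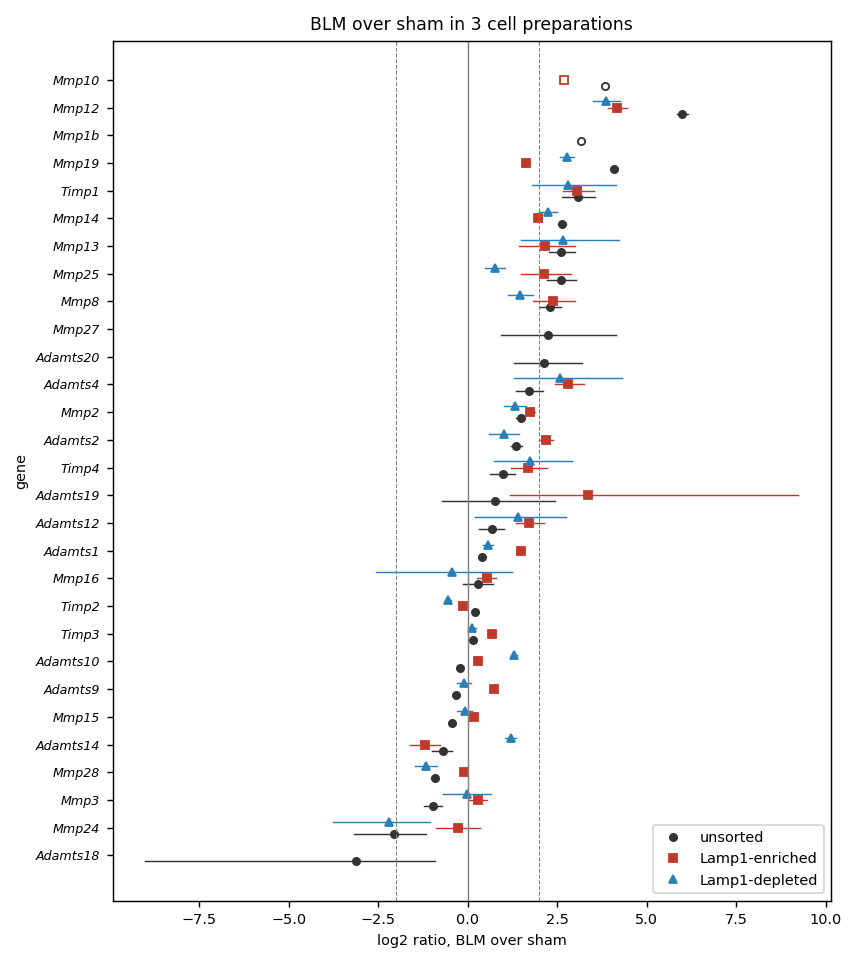
Log2 ratio of BLM over sham for the 29 members named by rule, in unsorted (black circles), Lamp1-enriched (red squares) and Lamp1-depleted (blue triangles) cells; lines are 95% counting intervals, dashed lines mark 4-fold, and open symbols are lower bounds where the sham library held 0 reads. Mmp12 lies furthest to the right in unsorted cells at 6.00, and Timp2 and Timp3 lie between -0.55 and 0.69 in all 3 preparations.

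Macrophage markers differed between the unsorted libraries in the same direction as Mmp12 and Mmp19. The 9 alveolar macrophage markers found of 10 listed summed to 680 CPM in sham and 2853 CPM in BLM unsorted cells, and the 10 markers of monocytes and interstitial macrophages to 162 and 1066 CPM. Of the second list, 7 of 10 were called higher in BLM unsorted cells, and of the first, 4 of 9 tested, beside 4.96% of all genes. None of the fibroblast markers was called higher there, and their sum was 507 CPM in sham and 384 CPM in BLM. In Lamp1-enriched cells the alveolar macrophage markers summed to 302 CPM in sham and 433 CPM in BLM, the monocyte and interstitial macrophage markers to 85.0 and 194 CPM, and the fibroblast markers to 277 and 376 CPM. Of the 10 fibroblast markers in Lamp1-enriched cells, Col1a2 alone was called higher in BLM, from 38.9 to 195 CPM, beside 3.59% of all genes. Ratios there were above 0 for 4 of the 10, with a median log2 ratio of -0.32. The part of macrophages and fibroblasts in the differences was not tested.

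Bleomycin and sham were also compared in 1 model over the 4 sorted libraries, with fraction as a second term, by the quasi-likelihood test of edgeR. This test had 1 residual degree of freedom, which came from how the treatment difference differed between fractions, and it took its spread from all genes together, so its p-values describe these 4 libraries and not variation between mice. Of 36 members tested, 9 rose in BLM and 0 fell at a Benjamini-Hochberg adjusted p under 0.05, against 2.41% and 1.56% of 20593 genes. The median log2 change was 0.46 over the members and -0.03 over all genes. The 9 were Mmp12, Timp1, Adamts4, Mmp19, Mmp14, Mmp8, Adamts2, Mmp9 and Mmp2. Mmp12 rose by a log2 change of 4.11 (SE 0.41, adjusted p = 6.74e-20), Timp1 by 3.06 (SE 0.60, adjusted p = 5.09e-05), Adamts4 by 2.82 (SE 0.62, adjusted p = 0.000551) and Mmp19 by 2.28 (SE 0.36, adjusted p = 1.64e-07). Mmp2 had the lowest of the 9 log2 changes, 1.63 (SE 0.37, adjusted p = 0.000973), beside Mmp9 at 1.63 (SE 0.41, adjusted p = 0.00402). At an unadjusted p under 0.05, 15 members were higher and 0 lower, beside 2755 of 20593 genes in either direction. DESeq2 called 9 of 31 members higher and 0 lower, beside 326 and 255 of 16108 genes. Scaling by total counts only left 1 member called higher, beside 16 of 20593 genes.

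To ask which members go with surface Lamp1, Lamp1-enriched cells were compared with Lamp1-depleted cells. In sham 11 of 36 members were called higher in Lamp1-enriched cells and 4 lower, against 15.6% and 12.6% of 21867 genes. In BLM 17 of 38 were called higher and 3 lower, against 18.0% and 12.0% of 21838 genes. The median log2 ratio of the members was 1.55 in sham and 1.61 in BLM, or 1.58 with Mmp10, at 0 reads in Lamp1-depleted cells, set to its bound. Over all genes the medians were -0.01 and 0.29. These comparisons share their libraries with those of BLM and sham within a fraction. In BLM 60.1% of all calls were in the higher direction, and 75.3% with total counts only.

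There were 10 members called higher in Lamp1-enriched cells under both treatments, 4 ADAMTS genes, 3 MMPs and 3 TIMPs. For Mmp16 the log2 ratio of Lamp1-enriched over Lamp1-depleted cells was 3.98 (3.19 to 5.01) in sham and 4.94 (3.66 to 6.92) in BLM. Adamts1 had 3.38 (3.29 to 3.47) and 4.30 (4.20 to 4.40), and Adamts9 2.80 (2.69 to 2.91) and 3.64 (3.48 to 3.8). Mmp15 had 3.15 (3.04 to 3.28) and 3.41 (3.23 to 3.59), and Mmp28 2.99 (2.85 to 3.12) and 4.03 (3.75 to 4.32). These 5 genes are thus a pair of membrane-type MMPs, a pair of versican-cleaving ADAMTS enzymes and epilysin. Among the inhibitors, Timp3 had 2.78 (2.72 to 2.85) and 3.35 (3.27 to 3.44), Timp2 2.49 (2.44 to 2.54) and 2.91 (2.83 to 3.0), and Timp1 2.40 (1.42 to 3.67) and 2.63 (2.12 to 3.21). Adamts4 and Adamts12 rested on fewer reads, 6 and 11 in sham Lamp1-depleted cells. The members called higher in BLM alone included Mmp2, Mmp3, Mmp21, Adamts2, Adamts5 and Adamts15, and Adamts3, the third enzyme of procollagen propeptides, was called in sham alone, at 2.02 (1.27 to 2.91), which was lost with total counts only at 1.85. A difference between the treatments was not tested for these genes. Mmp10 also passed, with 23 reads against 0, but its bound was only at least 2.97-fold, under the 4-fold rule.

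On the other side, Adamts14 and Mmp25 were called lower in Lamp1-enriched cells under both treatments. Adamts14, which like Adamts2 removes the amino-terminal propeptide of procollagen, stood at 6.65, 14.3 and 3.06 CPM in sham and at 4.08, 32.7 and 1.34 CPM in BLM. In both treatments it was highest in Lamp1-depleted and lowest in Lamp1-enriched cells. The log2 ratio of Lamp1-enriched over Lamp1-depleted cells for Adamts14 was -2.22 (-2.49 to -1.96) in sham and -4.59 (-4.98 to -4.26) in BLM. Mmp25 had -3.49 (-4.22 to -2.89) and -2.12 (-2.47 to -1.79). Mmp8, at -2.10 (-2.74 to -1.54), and Adamts6, at -2.32 (-2.44 to -2.21), were called lower in sham, and Mmp9, at -2.33 (-2.52 to -2.15), in BLM. With total counts only, the BLM calls of Mmp25 and Mmp9 were lost, at -1.56 and -1.77. Adamts10, an ADAMTS gene tied to microfibrils, was among the most even members, with 82.1, 45.2 and 51.4 CPM in sham and 70.7, 111 and 62.5 CPM in BLM.

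**Figure D5:**
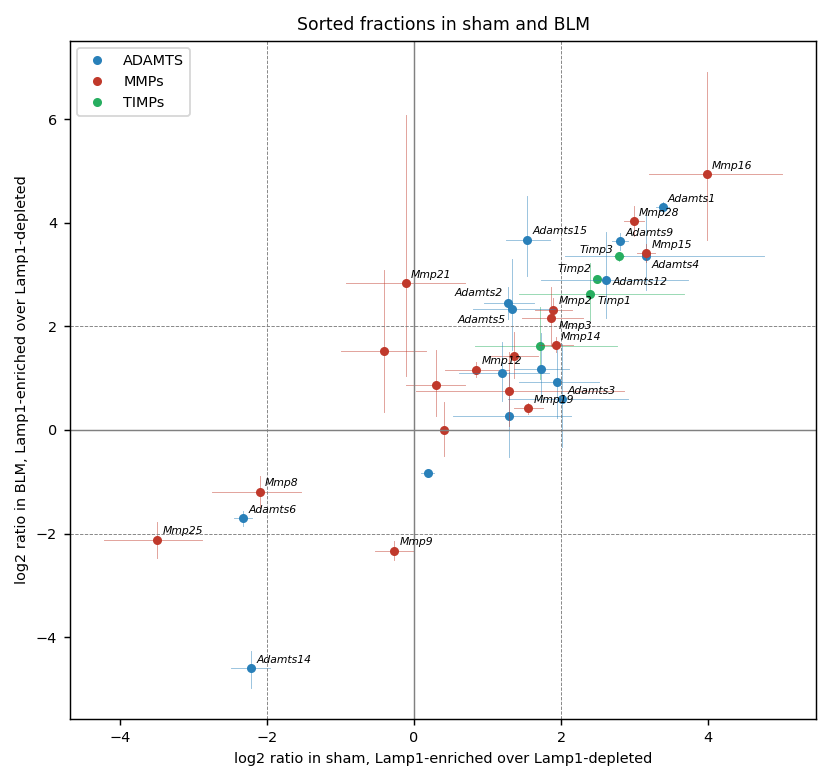
Log2 ratio of Lamp1-enriched over Lamp1-depleted cells in sham (horizontal) against BLM (vertical) for members with at least 10 reads in a compared library under both treatments; thin lines are 95% counting intervals and dashed lines mark 4-fold. Mmp16 and Adamts1 sit at the upper right, and Adamts14 at -2.22 and -4.59 and Mmp25 at -3.49 and -2.12 at the lower left.

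With both treatments in 1 model, the quasi-likelihood test of edgeR on the same 4 libraries found 20 of 36 members that rose in Lamp1-enriched cells and 5 that fell, against 21.5% and 19.2% of 20593 genes. The median log2 change was 1.37 over the members and 0.03 over all genes. The largest increases were those of Mmp16, 4.35 (SE 0.67, adjusted p = 9.62e-10), Adamts1, 3.74 (SE 0.42, adjusted p = 1.94e-17), and Mmp28, 3.40 (SE 0.38, adjusted p = 1.15e-17). Timp1, Timp2 and Timp3 all rose, with log2 changes of 2.45 (SE 0.59, adjusted p = 0.000194), 2.60 (SE 0.40, adjusted p = 7.23e-10) and 2.97 (SE 0.40, adjusted p = 2.15e-12), while Timp4 did not pass the test. The 5 that fell were Adamts14, by 3.49 on the log2 scale (SE 0.44, adjusted p = 5.71e-14), Mmp25, by 2.87 (SE 0.52, adjusted p = 3.71e-07), Adamts6, by 2.11 (SE 0.36, adjusted p = 2.97e-08), Mmp8, by 1.73 (SE 0.52, adjusted p = 0.00342), and Mmp9, by 1.41 (SE 0.41, adjusted p = 0.0022). Mmp12 and Mmp19 also passed, with the smaller log2 changes of 0.92 (SE 0.37, adjusted p = 0.0336) and 0.88 (SE 0.35, adjusted p = 0.0332).

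Cell type markers separated the fractions strongly. Of all genes tested, 15.6% were called higher in Lamp1-enriched cells in sham and 18.0% in BLM, and 12.6% and 12.0% lower. All 10 endothelial markers were called higher in Lamp1-enriched cells under both treatments, with sums of 11158 against 1430 CPM in sham and 11734 against 1062 CPM in BLM. No endothelial marker was at 0. All 8 platelet markers were called higher too, with Treml1 at 0 in BLM Lamp1-depleted cells. Their sums were 1034 against 43.2 CPM in sham and 150 against 14.2 CPM in BLM. Within Lamp1-enriched cells 7 of the 8 were called lower in BLM than in sham, beside 2.09% of all genes. Smooth muscle and pericyte markers were called higher for 8 of 10 under both treatments, with sums of 339 against 40.5 CPM in sham and 211 against 41.9 CPM in BLM and Cnn1 at 0 in BLM Lamp1-depleted cells. Fibroblast markers were called higher for 1 of 10 in sham and 8 of 10 in BLM. Alveolar epithelial markers were called higher for 6 and 3 of 10, while Napsa of that list was called lower under both treatments. Airway epithelial markers were called higher for 5 of 8 tested and 1 of 10, and in BLM 4 of the 10 were above 0, with a median of -0.40. Every tested marker of T, B and NK cells was called lower, and the B cell markers summed to 6719 CPM in sham and 2358 CPM in BLM Lamp1-depleted cells, against 351 and 181 CPM in Lamp1-enriched cells. Of the markers of monocytes and interstitial macrophages, 5 of 10 were called lower in sham and 1 of 10 in BLM. Endothelial, platelet, smooth muscle and pericyte markers thus differed in the same direction as Adamts1, Adamts9, Mmp15, Mmp28, Timp1, Timp2 and Timp3. Fibroblast markers did too, with 10 of 10 ratios above 0 under both treatments. Alveolar epithelial markers had 8 of 10 ratios above 0 in sham and 9 of 10 in BLM, and airway epithelial markers 8 of 8 in sham. Lymphocyte markers differed in the same direction as Adamts14 and Adamts6. Within Lamp1-depleted cells, however, B cell, T cell and NK cell marker sums were lower in BLM than in sham, while Adamts14 was higher. The part of these cells in the differences was not tested. Neutrophil markers summed to 323 CPM in BLM Lamp1-depleted against 58.1 CPM in BLM Lamp1-enriched cells, the same direction as Mmp8, Mmp9 and Mmp25, but to 45.7 against 28.8 CPM in sham. Ly6g was at 0 in sham Lamp1-enriched cells and Camp in sham Lamp1-depleted cells.

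The unsorted suspension served as another reference for the sorted cells. Against unsorted cells, 0 of 38 members tested were called higher in sham Lamp1-enriched cells and 1, Adamts20, lower, beside 0.439% and 4.97% of 22323 genes. In BLM 0 of 42 were called higher and 4 lower, namely Adamts20, Mmp12, Mmp13 and Mmp19, beside 2.37% and 9.03% of 22149 genes. The median log2 ratio of the members was -0.55 in sham and -0.01 in BLM, and that of all genes tested -0.03 and 0.04. The unsorted level lay above both sorted fractions for 22 of 38 members with at least 10 reads in unsorted cells in sham, and for 16 of 42 in BLM. Among all genes with as many reads it did so for 27.4% of 21842 in sham and 29.1% of 20534 in BLM. By 4-fold or more over the higher fraction it did so for 1 of 38 members in sham, against 2.44% of genes, and for 3 of 42 in BLM, against 3.65%. The member in sham was Adamts20, with 13 reads in unsorted cells and 0 in both fractions, at least 4.07-fold higher. The 3 members in BLM were Mmp19, 8.96-fold, Mmp12, 8.09-fold, and Mmp13, 5.46-fold above Lamp1-enriched cells. Mmp12 and Mmp19 thus had a higher CPM in BLM unsorted cells than in either sorted fraction. CPM are shares within a library, so levels of the suspension and its fractions do not add up. Alveolar macrophage markers stood in the same order, at 2853 CPM in BLM unsorted cells against 244 and 433 CPM in the Lamp1-depleted and Lamp1-enriched fractions, with Fabp1, 1 of the 9, at 0 in both fractions. Markers of monocytes and interstitial macrophages were also highest in BLM unsorted cells, at 1066 CPM, but stood at 324 CPM in Lamp1-depleted and 194 CPM in Lamp1-enriched cells. The part of these cells was not tested.

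The genes that surround the family in its pathway were taken as 4 lists. Of all genes tested, 4.96% were called higher and 5.00% lower in BLM in unsorted cells. In Lamp1-enriched cells these shares were 3.59% and 2.09%. Of 21 matrix substrates tested in unsorted cells, 6 were called higher in BLM and 0 lower. The largest log2 ratios were those of Spp1, osteopontin, at 5.94 (5.89 to 6.00), Fn1, fibronectin, at 3.95 (3.93 to 3.98), and Tnc, tenascin C, at 3.17 (2.97 to 3.37). In Lamp1-enriched cells 9 of 21 were called higher, among them Tnc at 4.22 (3.98 to 4.49) and Col1a1 at 3.24 (3.18 to 3.31). Acan, aggrecan, was also among them, with 0 reads in sham Lamp1-enriched cells and 0.294 CPM in BLM. Of 11 membrane ADAM proteases, Adam8, at 2.71 (2.61 to 2.82), and Adam33, at 2.44 (2.15 to 2.75), were called higher in BLM unsorted cells. All 11 had ratios above 0 there, against 46.4% of all genes tested. None was called in Lamp1-enriched cells, where Adam8 fell just short of 4-fold at 1.998 (1.80 to 2.21). In Lamp1-depleted cells 3 of 11 were called higher, beside 5.36% of all genes, among them Adam8 at 2.22 (2.07 to 2.36). Of 17 genes of activation and clearance, Lrp1, a receptor that takes up proteases with their inhibitors, at 2.14 (2.11 to 2.16), and Cd44, at 2.03 (2.00 to 2.05), were called higher in unsorted cells. In Lamp1-enriched cells Thbs2, a thrombospondin, was called higher at 2.90 (2.53 to 3.32). None of the 7 ADAMTS-like genes, which lack a protease domain, was called in either.

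Between the fractions all 7 ADAMTS-like genes were called higher in sham Lamp1-enriched cells, led by Adamtsl3 at 3.28 (2.95 to 3.64), and 3 of 7 in BLM. Beside this and the other lists, 15.6% of all genes tested were called higher in sham and 18.0% in BLM, and 12.6% and 12.0% lower. Adam15, a disintegrin protease, was called higher under both treatments, at 2.94 (2.84 to 3.05) and 3.07 (2.97 to 3.17), and Adam19 lower in sham, at -2.27 (-2.37 to -2.17). Of the genes of activation and clearance, 6 of 16 were called higher in sham and 6 of 17 in BLM, beside the 15.6% and 18.0% of all genes given above, led in BLM by Plat, tissue plasminogen activator, at 3.96 (3.69 to 4.26). A2m, a broad protease inhibitor, was called lower in BLM, with 1 read in Lamp1-enriched and 21 in Lamp1-depleted cells. Among substrates, 9 of 20 were called higher in sham and 16 of 22 in BLM, led in both by Vwf, the substrate of Adamts13, at 4.13 (4.09 to 4.17) and 4.24 (4.19 to 4.29). Ncan, neurocan, was called lower in BLM, at -3.29 (-6.92 to -1.46), with 2 reads against 10. Adamts13 itself stood at 0.968, 0.439 and 1.09 CPM in sham and 0.862, 0.852 and 1.03 CPM in BLM and was not called in any comparison.

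The 14 members outside the naming rule were Adamts3, Adamts5, Adamts6, Adamts7, Adamts8, Adamts13, Adamts15, Adamts16, Adamts17, Mmp9, Mmp11, Mmp17, Mmp21 and Mmp23, and those of them given with values above were chosen after their values were seen. Their highest level in any library ranged from 0.0556 RPKM for Adamts16 to 9.68 RPKM for Mmp9. Several of the ADAMTS genes had fewer reads in BLM than in sham unsorted cells without reaching 4-fold. For Adamts8, an inhibitor of vessel growth, the log2 ratio was -1.87 (-2.18 to -1.58), for Adamts17 -1.64 (-2.04 to -1.26), for Adamts15 -1.37 (-1.55 to -1.19) and for Adamts3 -1.33 (-1.91 to -0.79). Over all 43 members, the highest of the 6 levels was in BLM unsorted cells for 13, in BLM Lamp1-enriched cells for 12, in sham unsorted cells for 8, in sham Lamp1-enriched and BLM Lamp1-depleted cells for 4 each, and in sham Lamp1-depleted cells for 2.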

How the data were processed

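RNA-Seq of 6 lung cell preparations of sham-treated and BLM-treated mice was analysed, with 1 library per condition and conditions taken from the sample labels. The authors deposited a table of raw counts, with 1 row per gene and no normalization. The submitters' processing notes name Trimmomatic 0.36, STAR 2.5.2b, featureCounts of Subread 1.5.2, DESeq2 and the build GRCm38, with no settings, so the strand setting is unknown. Exonic bases of 12 members overlap another gene.

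Library factors (TMM), the quasi-likelihood test and its Benjamini-Hochberg adjusted p-values came from edgeR 4.0.16 under R 4.3.3, and ratios from Python 3.11.15 with scipy 1.17.1, with a prior count of 0.5 reads. RPKM used the union of exons of GENCODE M21, which held 49056 of 49315 gene identifiers. The self-written steps were tested on simulated data. Intervals and floors cover counting error only, and read depth sets their width.

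The members and lists were chosen with earlier results of these data known. Values in every library were printed for the TIMPs, members called in BLM over sham in unsorted or Lamp1-enriched cells, members called between fractions in the same direction under both treatments, members called in unsorted cells over both fractions, and the member of each class with the highest RPKM. From the related lists the 3 called genes with the largest ratio per comparison and direction could be named. The value of 1 gene of these lists is not reported here. Alternatives were DESeq2 1.42.0 size factors and its Wald test, total counts only, a prior count of 2 reads, minimums of 1 and 50 reads, a 2-fold rule, thinned counts, all genes with at least 1 read and all 6 libraries. Totals outside Gm26917 and unsorted cells as the base were added after seeing the data.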

Additional observations from a re-analysis of the deposited data

Results flagged for a closer look

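Adamts14 differed in opposite directions with bleomycin in the sorted fractions. Its log2 ratio of BLM over sham was -1.19 (-1.62 to -0.78) in Lamp1-enriched cells and 1.19 (1.04 to 1.35) in Lamp1-depleted cells, with 141 and 73 reads in the first pair of libraries and 651 and 690 in the second. With total counts only the ratio in Lamp1-depleted cells was 0.47. With 1 library per condition the difference between the fractions was not tested.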

How the results depend on the processing

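No replicate could be left out, since each condition had 1 library, and the edgeR test without the BLM Lamp1-depleted library would leave no residual degree of freedom. No paired analysis was possible because the labels give no replicate numbers to pair by, other than the edgeR test over the sorted libraries, which holds treatment and fraction together as terms. Of 150 alternative values of the counts and medians, 122 stayed within 1.5 times the reported count or within the counting spread of the median, 25 moved and 3 changed sign. Of 538 alternative values for single genes, 521 kept their call, 16 lost it, 1 moved and 0 changed sign. The cause was not tested for any of these.

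Total counts only shifted the median log2 ratio of all genes to -0.33 in unsorted cells, to -0.92 in Lamp1-depleted cells, and to -0.19 in sham and 0.85 in BLM between the fractions. Under it the median of the members in Lamp1-depleted cells, BLM over sham, reversed to -0.13 and 3 members were higher. Between the fractions in BLM it gave 1 member lower and a median of 2.14, in sham it gave 2 members in unsorted cells over both fractions, and the edgeR test gave 3 members lower with fraction and 1 higher with treatment. With unsorted cells as the base, the medians reversed to -0.55 in sham and -0.015 in BLM, with 0 members higher in either and 1 lower in sham. With at least 50 reads, BLM over sham gave 7 members higher and 1 lower in unsorted cells and 4 higher and 1 lower in Lamp1-depleted cells, and unsorted cells over both fractions gave 0 in sham. A prior count of 2 reads and thinned counts each gave 1 member lower in unsorted cells.

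With a 2-fold rule, BLM over sham gave 6 members lower in unsorted cells, 15 higher and 2 lower in Lamp1-enriched cells, and 15 higher and 4 lower in Lamp1-depleted cells. The same rule gave 25 higher between the fractions in sham, 5 lower in BLM, and 7 in sham and 8 in BLM for unsorted cells over both fractions. The calls of Adamts18, Adamts19, Adamts20, Mmp10, Mmp1b and Mmp27 in BLM over sham rest on fewer than 50 reads in the higher library.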

Other observations

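The 3 genes below the minimum held almost no reads. Mmp7, matrilysin, had at most 3 reads, Mmp1a 1 read in sham unsorted cells and Mmp20, enamelysin of teeth, 0 reads in all 6 libraries.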
